A study of Mus musculus with 6 samples.

Results

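The small leucine-rich proteoglycans are secreted proteins that bind collagen in the extracellular matrix. The 9 genes Dcn, Bgn, Fmod, Lum, Prelp, Ogn, Aspn, Omd and Podn were taken by symbol from a table of 53797 mouse genes, and every one of them was found. RNA was sequenced from MLO-Y4 cells, an immortalised osteocyte-like line derived from mouse long bone. Cells of 3 cultures received low-intensity pulsed ultrasound (LIPUS) for 20 min, at a frequency of 1.5 MHz and an intensity of 30 mW/cm2, and the 3 Control cultures received none. Both groups were grown on collagen-coated wells in serum-containing medium and were taken for RNA 30 min after the stimulation. Control wells shared a plate with treated wells, above transducers that were not plugged in. All 6 libraries therefore come from the same line, and the groups differ in the ultrasound alone as far as the labels and methods state. The study proposes that stimulation may have leaked into Control cells of the shared plate, which was not tested here.

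Each member of this family is built around a stretch of leucine-rich repeats, and several carry chondroitin, dermatan or keratan sulfate chains. Decorin (Dcn), biglycan (Bgn) and asporin (Aspn) form one class, fibromodulin (Fmod), lumican (Lum), PRELP (Prelp) and osteomodulin (Omd) another, osteoglycin (Ogn) belongs to a class with few members, and podocan (Podn) to a later branch. In bone and tendon these proteins set the diameter and spacing of collagen fibrils, and decorin, biglycan, asporin and fibromodulin also bind growth factors of the TGF-β group.

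The genes lie in 5 places of the GRCm38 genome, by the GENCODE M21 annotation. Dcn (ENSMUSG00000019929, chr10:97479609-97518143, plus strand) and Lum (chr10:97565128-97572703, plus strand) are neighbours. Prelp (chr1:133910304-133921414, minus strand) and Fmod (ENSMUSG00000041559, chr1:134037254-134048277, plus strand) lie on chromosome 1. Aspn (chr13:49544443-49567565), Omd (chr13:49582462-49592822) and Ogn (ENSMUSG00000021390, chr13:49608046-49624501) follow each other on the plus strand of chromosome 13. Bgn (ENSMUSG00000031375, chrX:73483602-73495933, plus strand) and Podn (chr4:108014791-108096445, minus strand) stand apart from other members.

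Promoter windows of RefSeq on GRCm38.p6, which run from 250 bases before the start of a gene to 50 bases after it, were matched by symbol for 7 of the 9 members, all but Dcn and Lum. The windows of Fmod, Bgn and Ogn are shown because these are the members with a window that were measured well enough for a comparison. They are written 5′ to 3′ on the plus strand, the strand of all 3 genes, and capitals mark the motif matches described after them. Fmod is the window at chr1:134037004-134037303, Bgn that at chrX:73483351-73483650 and Ogn that at chr13:49607765-49608064.
Fmod: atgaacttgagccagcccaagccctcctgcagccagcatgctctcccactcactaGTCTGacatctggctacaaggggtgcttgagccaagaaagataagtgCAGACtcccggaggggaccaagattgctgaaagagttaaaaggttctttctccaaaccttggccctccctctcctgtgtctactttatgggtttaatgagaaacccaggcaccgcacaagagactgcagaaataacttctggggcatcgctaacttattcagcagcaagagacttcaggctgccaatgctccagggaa
Bgn: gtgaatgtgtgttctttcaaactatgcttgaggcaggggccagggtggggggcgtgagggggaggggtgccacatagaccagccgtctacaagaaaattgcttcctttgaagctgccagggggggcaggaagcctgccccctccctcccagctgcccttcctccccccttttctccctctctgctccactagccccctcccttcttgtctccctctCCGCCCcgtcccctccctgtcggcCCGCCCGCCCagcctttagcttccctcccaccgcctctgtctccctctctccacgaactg
Ogn: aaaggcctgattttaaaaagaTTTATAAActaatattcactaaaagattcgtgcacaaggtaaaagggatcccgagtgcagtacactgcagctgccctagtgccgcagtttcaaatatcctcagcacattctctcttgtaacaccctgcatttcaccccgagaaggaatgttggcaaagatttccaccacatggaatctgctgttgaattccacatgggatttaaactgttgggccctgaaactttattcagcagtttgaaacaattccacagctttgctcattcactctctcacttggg

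Short motifs were searched on both strands. The TATA box letters TATAAA, found in 13.6% of all 32851 windows, occurred in the Ogn window as overlapping matches at -229 and -227 from the start site, far from the usual place of a TATA box, and in no window of Fmod or Bgn. The GC box letters GGGCGG, found in 35.7% of all windows, occurred in the Bgn window 3 times, at -34, -10 and -6 and each as CCGCCC, of which the last pair overlap. The letters CAGAC, the core of a SMAD element and found in 49.6% of all windows, occurred in the Fmod window at -195, as GTCTG, and at -148. The AP-1 letters TGANTCA (7.81% of all windows) and the EGR letters GCGNGGGCG (5.55%) were in none of the 3 windows. The Bgn window was richer in G and C, at 63.7%, than the Fmod window at 51.0% and the Ogn window at 42.3%, beside a median of 52.7% over all windows. These matches describe the letters of the windows only.

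The data are 1 FPKM value (the fragments of a gene scaled by transcript length and by sequencing depth) per gene and group, which the authors pooled over the libraries of the group. No value of a single library is held, so no spread between replicates, SD or test can be given for any difference described here, and the separate values of a Control culture that the study describes as standing apart from the other Control cultures could not be looked at. The authors' table marks each gene with a status, OK where their comparison was run and NOTEST where it was not. In all, 8145 genes had status OK, and among these the lowest FPKM of the higher group was 6.696. An FPKM above 0 in either group was held by 16476 genes. A gene was counted as apart when its FPKM differed by at least 1.5-fold between the groups. This holds for 4.7% of the 8143 genes with status OK and values above 0 in both groups in the direction of LIPUS, and for 4.69% in the direction of Control. Library depth was read from the low values of genes with 1 transcript, which fall on steps worth 1 fragment, and comes to between 1530252 and 1564521 fragments per LIPUS library and between 1309132 and 1771821 per Control library, if the group value is the mean of 3 library values and the lowest step is 1 fragment. Of 1671 such genes above 0 in LIPUS, 7 lay more than 1% below the lowest step, and of 1685 in Control, 3. The methods state a larger number of reads per sample, and this gap was not resolved. Scaling between libraries, which is not given in the sources used here, could also shift these depths. If a step stood for more than 1 fragment, the fragment numbers and counting intervals might differ from those given here, and this was not tested. Fragment numbers below rest on these steps and on the longest coding transcript of each gene, and their 95% intervals, exact and from the binomial distribution, cover counting error only.

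Dcn was the member furthest apart between the groups and was higher with LIPUS. Decorin, which carries a single chondroitin or dermatan sulfate chain and binds type I collagen and TGF-β, had an FPKM of 189 in Control and of 540 with LIPUS. The LIPUS value was 2.86-fold the Control value, a log2 ratio of 1.52. About 1337 fragments lay behind the Control value and 3969 behind the LIPUS value, which puts the counting interval of the ratio at 2.69 to 3.05. Dcn has 5 annotated transcripts, and with the shortest coding transcript the same FPKM would stand for 72.3 and 215 fragments, with an interval of 2.195 to 3.814. Only 20 of the 8143 genes, or 0.246%, had a higher log2 ratio. Among the 1024 of these genes with an FPKM of at least 100 in either group, the log2 ratio of Dcn was the highest. Its gain of 351 FPKM was the 14th largest in the table, and its rank among all genes by FPKM went from 461 in Control to 180 with LIPUS. How much the 3 libraries of a group differed from each other for Dcn was not measured here, and in bulk RNA more transcript per cell and more cells with the transcript cannot be told apart.

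Bgn, the closest relative of Dcn in structure, lay within 1.5-fold between the groups. Biglycan, which usually carries a pair of glycosaminoglycan chains and is abundant in bone matrix, was the most abundant member in both groups, with an FPKM of 1222 in Control and of 1077 with LIPUS. Its log2 ratio was -0.18, short of 1.5-fold, and 48.8% of the genes with status OK lay further from 0. Behind these values were about 12264 and 11212 fragments, for a counting interval of the ratio of 0.859 to 0.904. Bgn ranked 58th of all genes in Control and 72nd with LIPUS. The FPKM of Bgn was 6.48 times that of Dcn in Control and 1.996 times that of Dcn with LIPUS. Aspn, the third member of this class, which has a run of aspartate residues and no chain, was near the floor of the data, at 0.475 in Control and 0.508 with LIPUS, about 5 fragments in each group, and had status NOTEST.

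**Figure D1:**
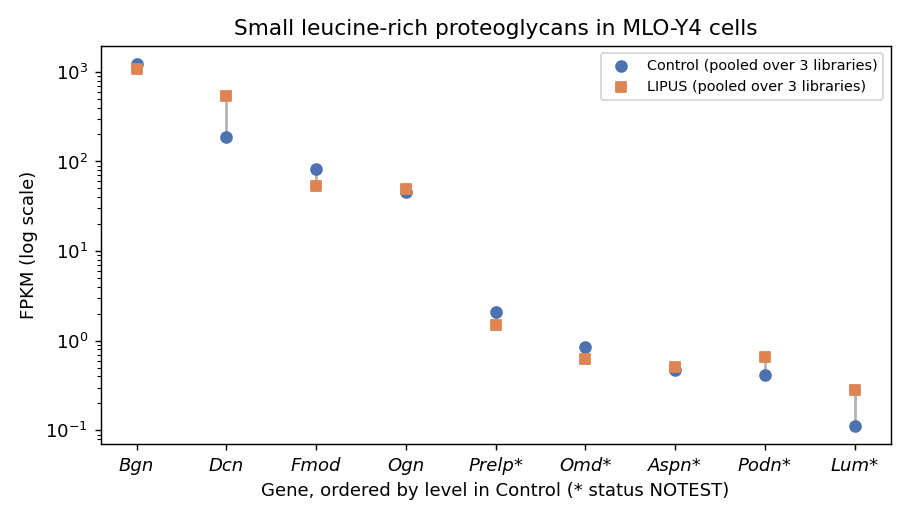
FPKM of each of the 9 genes on a log axis, in Control (circles) and LIPUS (squares), in order of the Control level; each point is the authors' value pooled over 3 libraries, the grey line joins the groups, and an asterisk marks status NOTEST. Dcn separates, at 189 and 540, while Bgn and Ogn nearly coincide and Lum, the widest gap among the low genes, rests on about 1 and 3 fragments.

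In the fibromodulin class, Fmod was lower with LIPUS and the other members were hardly detected. Fibromodulin, a keratan sulfate proteoglycan that binds collagen fibrils and directs lysyl oxidase to them, had an FPKM of 83.1 in Control and of 53.3 with LIPUS. The Control value was 1.56-fold the LIPUS value, a log2 ratio of -0.64, just past the 1.5-fold mark. About 1094 and 727 fragments lay behind these values, and the counting interval of the ratio of LIPUS to Control ran from 0.583 to 0.704, which includes ratios of less than 1.5-fold. On the shorter of its 2 annotated transcripts the same FPKM would stand for 135 and 89.7 fragments, with an interval of 0.487 to 0.845. A lower log2 ratio was found in 309 genes with status OK, or 3.79%. In either direction, 7.69% of these genes lay further from 0 than Fmod.

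Prelp, which codes for a protein that anchors basement membranes to collagen, was the most abundant of the low members, with an FPKM of 2.09 in Control and of 1.50 with LIPUS. About 32 and 24 fragments gave a counting interval of 0.408 to 1.27 for its ratio, so the interval includes equal levels. Omd, which codes for a keratan sulfate proteoglycan of mineralised tissue, had 0.860 in Control and 0.625 with LIPUS, about 8 and 6 fragments. Lum, the partner of Fmod in the assembly of collagen fibrils, had 0.112 in Control and 0.283 with LIPUS. Its log2 ratio of 1.34 is close to that of Dcn, but it rests on about 1 fragment in Control and 3 with LIPUS, with a counting interval from 0.232 to 152. Counting intervals on this scale include equal levels for Prelp, Omd and Lum, and all had status NOTEST.

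Ogn was measured about as well as Fmod and lay close to equal in the groups. Osteoglycin, also called mimecan, is a small keratan sulfate proteoglycan made by bone cells. Its FPKM was 45.4 in Control and 49.0 with LIPUS, a log2 ratio of 0.11. With about 486 and 543 fragments on its only annotated transcript, the counting interval of its ratio was 0.951 to 1.22. Fmod was 1.83 times as high as Ogn in Control and 1.09 times as high with LIPUS. Podn, which codes for a matrix protein found around smooth muscle cells, had 0.410 in Control and 0.658 with LIPUS, and its counting interval of 0.522 to 6.59, from about 5 and 9 fragments, includes equal levels.

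Thus 4 of the 9 genes, Dcn, Bgn, Fmod and Ogn, had status OK, and the 5 others, with FPKM between 0.112 and 2.09, had status NOTEST. Of these 4, Dcn was at least 1.5-fold higher with LIPUS, Fmod at least 1.5-fold lower, and Bgn and Ogn neither. Over the 8143 genes with status OK and values above 0 in both groups, 4.7% were that much higher and 4.69% lower. The median log2 ratio of the 4 was -0.04, beside 0.00 over all genes with status OK, and the central 95% of those genes lay between -0.75 and 0.77. Dcn lies outside that range, and Fmod, Bgn and Ogn lie inside it.

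**Figure D2:**
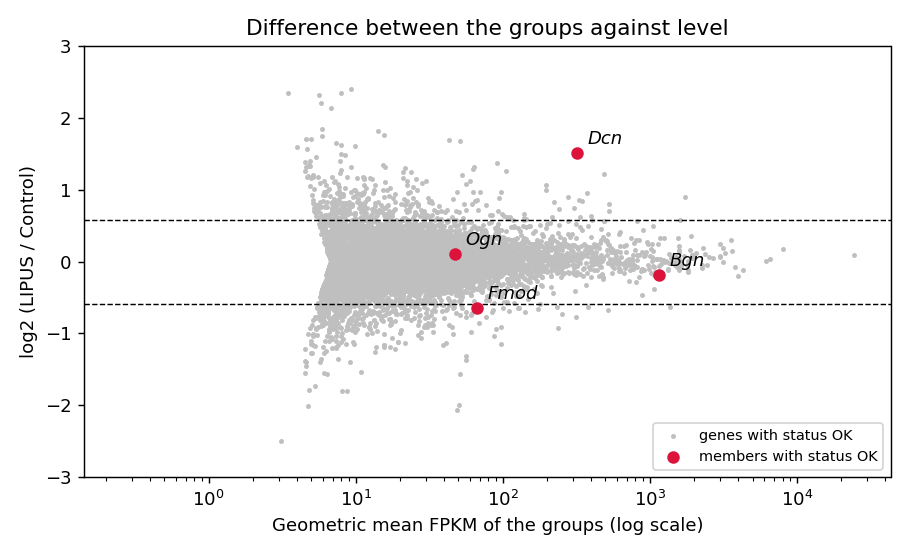
Log2 ratio of LIPUS to Control (vertical axis) against the geometric mean FPKM of the groups (horizontal axis, log scale) for genes with status OK (grey) and the 4 members with that status (red); dashed lines mark 1.5-fold. Dcn, at 1.52, stands above genes of its level, Fmod lies at -0.64 just below the lower line, and Bgn and Ogn lie between the lines.

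The summed FPKM of the 9 genes was 1543 in Control and 1722 with LIPUS, a log2 ratio of 0.16, and made up 0.258% and 0.279% of the FPKM of all genes. Dcn accounts for the sign of this difference, since the sum of the other 8 was 1354 in Control and 1183 with LIPUS, a log2 ratio of -0.20. The composition of the family differed more than its sum. Bgn made up 79.2% of it in Control and 62.5% with LIPUS, and Dcn 12.2% and 31.3%. Fmod made up 5.39% in Control and 3.09% with LIPUS, and Ogn 2.95% and 2.84%. The 5 genes with status NOTEST together came to 3.95 FPKM in Control and 3.57 with LIPUS. The order of the levels, Bgn, Dcn, Fmod, Ogn and Prelp from the highest, was the same in both groups, and below Prelp the order differed between them, at numbers of fragments where the genes could not be separated. The ratio of Dcn to Fmod was 2.27 in Control and 10.1 with LIPUS.

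**Figure D3:**
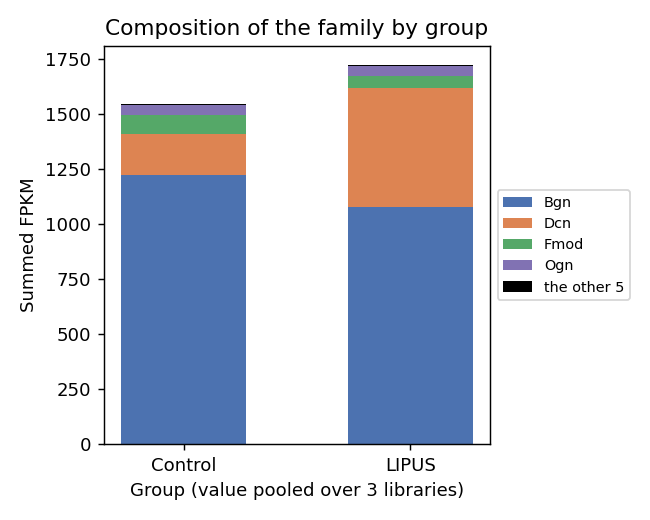
Summed FPKM of the 9 genes (vertical axis, from 0) in Control and LIPUS, divided by gene; each bar is built from the authors' pooled values. The total is 1543 in Control and 1722 with LIPUS, and the Dcn part is 189 in Control and 540 with LIPUS while the Bgn part is 1222 and 1077.

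Members that lie side by side in the genome were measured at very different levels. On chromosome 10, Dcn at 189 and 540 FPKM is followed by Lum at 0.112 and 0.283, and then by Kera and Epyc, the genes for the family members keratocan and epiphycan, both listed at 0 in both groups. On chromosome 1, Fmod at 83.1 and 53.3 FPKM shares a stretch of 151 kb with Prelp at 2.09 and 1.50 and with Optc, for opticin, at 0.758 and 0.155. Between Prelp and Fmod lie Gm1627, at 0.105 in Control and listed at 0 with LIPUS, and Gm18970, listed at 0 in both. On chromosome 13, Ogn at 45.4 and 49.0 FPKM closes a row of Ecm2 (1.31 and 1.47), Aspn (0.475 and 0.508) and Omd (0.860 and 0.625) within 120 kb. In each of the 3 clusters a single gene thus held nearly all of the FPKM of the family genes in both groups. Cenpp, a centromere protein gene on the opposite strand with 8.77 in Control and 6.76 with LIPUS, spans Aspn, Omd and Ogn, but in the annotation its exons share 7 bases with those of Aspn and none with those of Omd and Ogn. Scp2, at 61.3 and 69.9, overlaps Podn on the same strand, and their exons share no base. Whether fragments were counted by strand is not given in the sources used here.

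**Figure D4:**
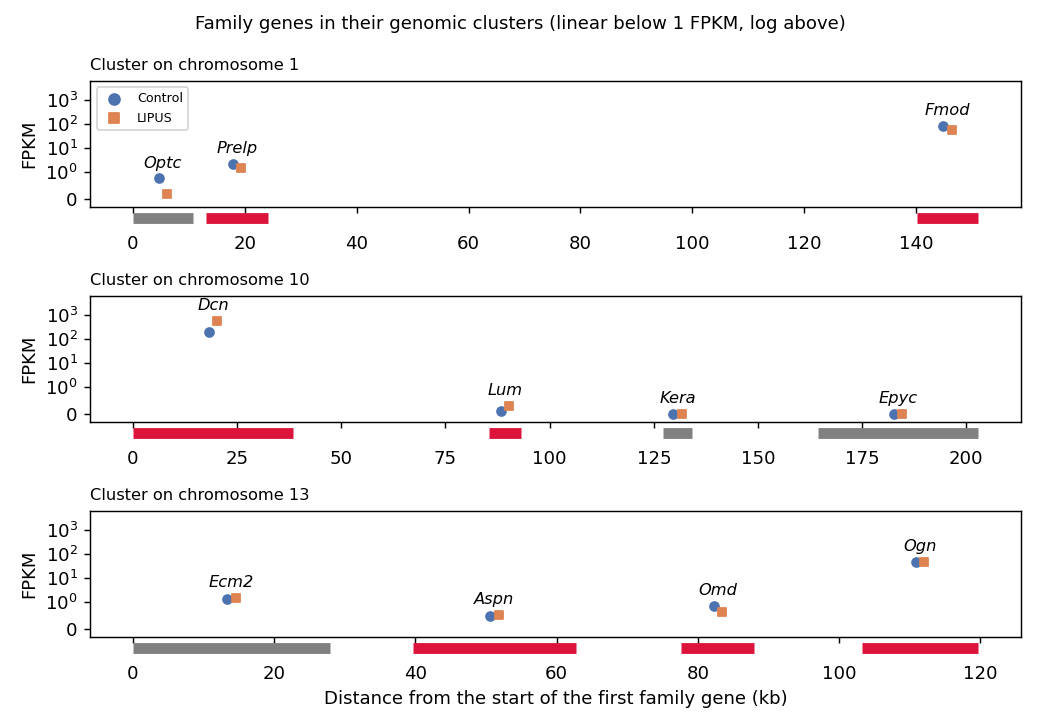
FPKM in Control (circles) and LIPUS (squares) of the genes of the family in 3 genomic clusters, at their distance in kb from the start of the first; the vertical axis is linear below 1 FPKM and logarithmic above, and bars under each panel show the extent of each gene, red for the 9 genes and grey for other genes of the family. Dcn, Fmod and Ogn stand above neighbours that lie at 2.09 FPKM or less.

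Other members of the leucine-rich family were mostly low. Of 9 further genes, 2 had status OK and neither was 1.5-fold apart. Tsku, for the signalling inhibitor tsukushi, was the highest of them, at 42.1 in Control and 43.3 with LIPUS. Kera, Epyc, Nyx and Chad were listed at 0 in both groups. Among 24 other proteoglycan core proteins, 12 had status OK, none was 1.5-fold higher and Sdc3, for the cell surface heparan sulfate proteoglycan syndecan-3, was lower, at 218 in Control and 145 with LIPUS (log2 ratio -0.59). Vcan, for the large chondroitin sulfate proteoglycan versican, lay as near to the 1.5-fold mark on the other side of 0, at 18.6 in Control and 27.9 with LIPUS (log2 ratio 0.58), and just missed it. Prg4, for lubricin, was the highest of these 24, at 795 in Control and 657 with LIPUS. Among all 42 core protein genes of the 3 lists, Bgn ranked first in both groups, and Dcn ranked 6th in Control and 4th with LIPUS.

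The enzymes that build the sugar chains of the members were mostly within 1.5-fold. Of 33 genes for chain synthesis and sulfation, 21 had status OK, Chpf2 was 1.5-fold higher and none was 1.5-fold lower, for a median log2 ratio of 0.06. Chpf2, for a chondroitin polymerising factor, had 6.80 in Control and 15.3 with LIPUS, a log2 ratio of 1.17. Ugdh, whose enzyme makes the UDP-glucuronate that the chains are built from, was the highest of this list, at 413 in Control and 452 with LIPUS.

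Among the collagens that the members bind, and the enzymes that cross-link them, no gene with status OK was apart by 1.5-fold. Of 11 fibrillar collagen genes, 8 had status OK, with a median log2 ratio of -0.17. Col1a1, for the main chain of bone collagen, was the highest, at 891 in Control and 731 with LIPUS. Of 14 genes for cross-linking and hydroxylation, 12 had status OK, with a median of -0.02, and Lox, for lysyl oxidase, was the highest, at 1084 in Control and 972 with LIPUS.

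Among 15 genes for proteases that act on the members or on their collagens, and for enhancers of such proteases, 9 had status OK, with a median of 0.25. Mmp3, for stromelysin-1, which cuts decorin among other substrates, was higher with LIPUS, at 40.5 in Control and 99.0 with LIPUS, a log2 ratio of 1.29. Mmp13, for the interstitial collagenase of rodents, was also higher, at 245 and 446, a log2 ratio of 0.86. Pcolce, for an enhancer of procollagen processing, was the highest of the list, at 703 in Control and 698 with LIPUS. None of the 9 was 1.5-fold lower.

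Of 16 genes for receptors that bind decorin, biglycan or other members, 7 had status OK and none was 1.5-fold apart, with a median of 0.08. Lrp1, for an endocytic receptor that takes up decorin, was the highest, at 404 in Control and 426 with LIPUS. Of 18 genes for growth factors and matrix ligands of the members, 8 had status OK, with a median of 0.11, and Ctgf, for a matricellular protein that decorin binds, was higher with LIPUS, at 1271 in Control and 2375 with LIPUS (log2 ratio 0.90). Ctgf was the highest of the list with LIPUS, and Fn1, for fibronectin, was the highest in Control, at 1915 in Control and 2028 with LIPUS. The counts of these lists are descriptions, and no list was tested. Over all 8143 genes with status OK and values above 0 in both groups, 4.7% were at least 1.5-fold higher with LIPUS and 4.69% lower.

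**Figure D5:**
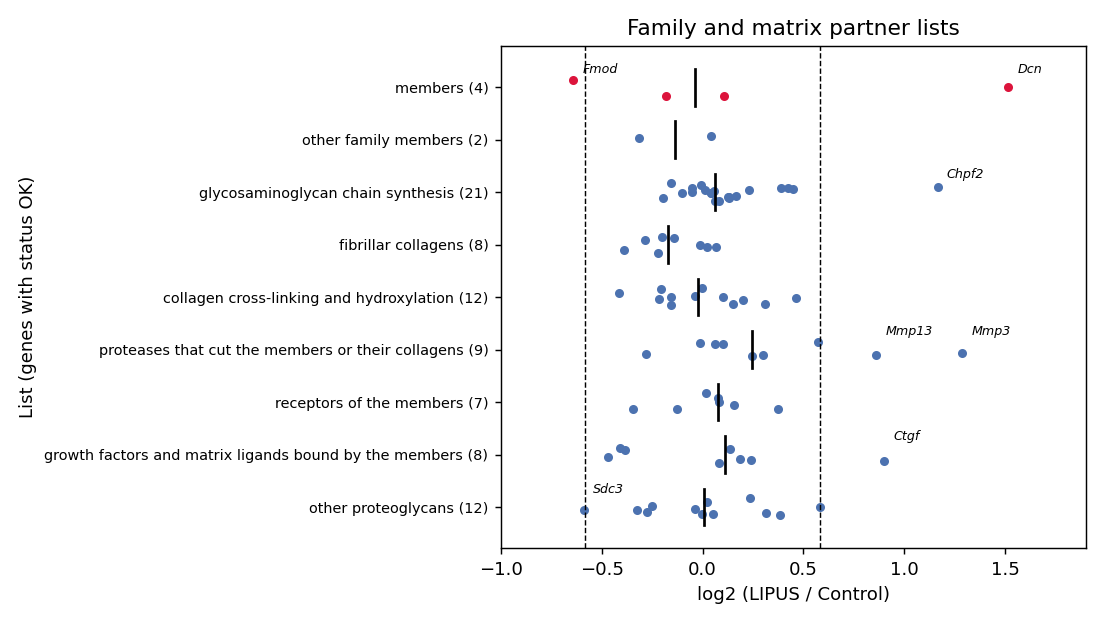
Log2 ratio of LIPUS to Control (horizontal axis) of the genes with status OK in the family and in lists of related matrix genes (vertical axis, with the number of genes); each point is a gene, black bars are medians, dashed lines mark 1.5-fold, and genes past 1.5-fold are named. Dcn, at 1.52, is the point furthest from 0 on the plot, followed by Mmp3 at 1.29 and Chpf2 at 1.17.

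The 5 genes nearest to Dcn in log2 ratio, among genes with status OK and an FPKM of at least 10 in either group, were D930007J09Rik (4.75 in Control and 13.5 with LIPUS, log2 ratio 1.50), Poc5 (5.10 and 14.2, 1.48), Ppp2r3d (5.69 and 17.4, 1.61), Olfr810 (4.50 and 13.9, 1.63) and Acta2 (4.81 and 12.7, 1.40). All of them lay far below Dcn in level and reached 10 FPKM only with LIPUS, so that the minimum itself favours high ratios among such genes, and the likeness rests on 2 group values. Of these, Acta2 codes for smooth muscle actin.

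Markers of cell types were read in the same table to set the family beside the identity of the cells. Of 7 osteocyte markers, Mepe, Sost and Fgf23 were listed at 0 in both groups, 3 had status OK, and the summed FPKM was 475 in Control and 579 with LIPUS. Most of this sum came from Pdpn, for podoplanin, at 295 in Control and 402 with LIPUS, and from Gja1, for the gap junction protein connexin, at 176 and 170. Dmp1, for a matrix protein of early osteocytes, was at 3.04 in Control and 7.65 with LIPUS, a log2 ratio of 1.33. Only its LIPUS value reached 6.696, the lowest FPKM of the higher group among genes with status OK, so that the status itself favours a high ratio here. The defining late osteocyte genes were thus not detected in this osteocyte-like line at this depth, which does not show that they are absent. Of 7 osteoblast markers, Ibsp was listed at 0, and the sum was 5729 in Control and 5099 with LIPUS. Most of this sum came from markers within 1.5-fold between the groups, among them Col1a1. Runx2 (24.4 and 14.8) and Alpl (293 and 190) were at least 1.5-fold lower with LIPUS, in the direction of Fmod. Their part in the values of Dcn and Fmod was not tested. Of the 8 chondrocyte markers, Acan, Col9a1, Matn1 and Cnmd were listed at 0, and the sum was 10.0 in Control and 8.92 with LIPUS. Of the 4 tendon markers, Mkx, Tnmd and Thbs4 were listed at 0 and Scx was at 8.79 in Control and 12.8 with LIPUS. The 4 adipocyte markers summed to 6.46 in Control and 8.86 with LIPUS, with Plin1 and Cidec at 0. The 5 immune markers read summed to 5.55 and 1.96, with Ptprc, Adgre1 and Cd3e at 0. None of them had status OK, and most of this sum came from a single marker. The 4 endothelial markers summed to 0.496 and 0, with Cdh5, Tek and Kdr at 0.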

How the data were processed

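According to the methods, stranded mRNA libraries of 3 LIPUS and 3 Control cultures of MLO-Y4 cells were sequenced. The submitters' processing notes name bcl2fastq 1.8.3, Trimmomatic 0.36, TopHat2 2.1.0, Bowtie2 2.2.6.0, Cufflinks 2.1.1 (the methods give another version), Cuffdiff and the build GRCm38, and the transcripts were those of Ensembl. The authors deposited 1 table with an FPKM per gene for each group, pooled over its libraries, and a status. The normalization between libraries is not given in the sources used here. The deposited table also holds the authors' own log2 fold change, test statistic, p-value, q-value and call, which are their comparison and were not used.

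Groups were taken from the labels, and FPKM columns by their group names. Log2 ratios of LIPUS to Control were computed without a pseudocount. With 1 value per group no test was possible, and genes were counted as apart at 1.5-fold, beside the same count over the genes with status OK. The members and lists were chosen with earlier results of these data known. Named were every member, the 5 genes nearest to Dcn in log2 ratio, and the genes between members of a genomic cluster. Of each list other than the cell type markers, the genes with status OK past 1.5-fold (up to 5) and the highest gene were named. Genes that neighbour or overlap members, and some marker genes, are given for position or cell identity, and 1 marker gene is not reported here. Vcan and Gja1 were chosen after their values were seen.

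The value of 1 fragment was found from genes with 1 transcript longer than 1500 bases, as steps of FPKM times the length less 168 bases, between 170 and 270. Of 392 such genes in LIPUS 99.2%, and of 421 in Control 98.1%, lay within 1% of a step. These settings were chosen after seeing the data. Fragment numbers of genes with several transcripts depend on the transcript assumed. Alternatives were folds of 1.25 and 2, FPKM minimums of 1 and 10, no filter, pseudocounts of 0.1 and 1, and 3 scalings. Scripts ran in Python 3.11.15 (pandas 2.3.3, numpy 2.4.6, matplotlib 3.10.9, scipy 1.17.1). The 1.5-fold count was tested on simulated folds, while the fragment steps and their intervals were not tested on simulated data.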

Additional observations from a re-analysis of the deposited data

How the results depend on the processing

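The log2 ratio of Dcn ranged from 1.47 to 1.52, that of Fmod from -0.69 to -0.63, that of Bgn from -0.23 to -0.17 and that of Ogn from 0.06 to 0.11 over the pseudocounts of 0.1 and 1 and the 3 scalings. Over the same settings, 39 of 45 member values moved by less than 0.1, and 6 values of Lum, Podn, Prelp and Omd moved further. No sign could change, since an equal pseudocount keeps the sign and the scalings shifted ratios by less than the size of any member's. The scalings alone could not move a value by 0.1 either. The scalings moved all log2 ratios by -0.00433 (median centring), -0.0457 (equal sum) and 0.00704 (equal upper quartile). The count of members at least 1.5-fold apart was 2 (1 higher and 1 lower), where 4.7% of the 8143 genes with status OK were higher and 4.69% lower. It was 1 (Dcn) with a fold of 2, where 1.08% of the 8143 genes with status OK were higher and 0.921% lower. It was 4 (3 higher, with Lum and Podn, and 1 lower) without a filter, where 11.0% of the 13892 genes above 0 in both groups were higher and 11.8% lower. When Dcn was left out, an alternative chosen after seeing the data, it was 1 (Fmod), beside the same 4.7% and 4.69%. The median log2 ratio was -0.18 with an FPKM minimum of 1 and when Dcn was left out, and 0.095 without a filter. The summed FPKM without Dcn had a log2 ratio of -0.20. Leaving out replicates was not run, since each group has 1 pooled value. No paired analysis was possible because the table holds no value of a single library. Counting error is widest for Lum, Aspn, Omd, Podn and Prelp, which rest on at most about 32 fragments in a group.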

Other observations

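Within 100 kb of Dcn and of Fmod, a single gene other than the members had status OK. It was Btg2, an antiproliferative immediate early gene 26.9 kb from Fmod, with an FPKM of 32.5 in Control and of 53.7 with LIPUS, a log2 ratio of 0.72 and so opposite in direction to Fmod at -0.64. Btg2 was chosen after its values were seen.

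In the Control group the steps worth 1 fragment, given as FPKM times effective bases, lay at 188, 242 and 255, the highest being 1.35 times the lowest. In the LIPUS group they lay at 213 and 218, with a ratio of 1.02. The steps of the Control group thus lay further apart than those of the LIPUS group. They come from FPKM that the authors had scaled, so differences in depth and in scaling between libraries cannot be told apart.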
